A study of Mus musculus with 31 samples.

Results

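The xenobiotic-metabolizing (detoxification) enzymes of the olfactory mucosa were followed in embryonic mouse nerve transcriptomes through 9 genes among the 47729 listed in the count matrix: Inmt, Cbr2, Cyp2a5, Cyp2f2, Cyp2g1, Cyp1b1, Ugt2a1, Gstm1 and Fmo1. Each gene was found by its Ensembl identifier. Inmt and Cbr2 had been picked because their reads were concentrated in the olfactory nerve, and the other 7 were set beside them for their known function, with earlier results of these data known. The nerve levels of Inmt and Cbr2 are therefore given as a description, without a test. In E16.5 olfactory nerve, Inmt averaged 433 CPM ± 245 (SD, n = 4) and Cbr2 373 CPM ± 174 (SD, n = 4), where CPM is the read count relative to the TMM-scaled size of the library. Of the 9 genes, 8 had enough reads to pass the filter on low counts. The exception, Ugt2a1, had 1 read in all 31 libraries. Cyp2a5, Cyp2f2 and Cyp2g1 passed only through the nerve libraries, so their differences between nerve and other regions are given as read counts and ratios, with no test.

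The libraries came from Sox10:Histone2BVenus BAC transgenic embryos, in which a nuclear Venus reporter under Sox10 control marks olfactory ensheathing cells (OECs) and Schwann cells. Every group carried this transgene, and the labels give neither a wild-type group nor a treatment. Pieces of nerve were cut from frozen sections by laser microdissection, several sections were pooled for each library, and cDNA was amplified by SMART-seq. The regions were the olfactory nerve in the lamina propria at 3 stages (E11.5, E13.5 and E16.5, in days of embryonic development), the olfactory nerve layer (ONL) around the olfactory bulb at E13.5, the outer ONL (far from the bulb) and inner ONL (next to the bulb) at E16.5, and trigeminal nerve branches at E16.5. The inner and outer cuts were adjacent, and the inner pieces also took in bulb tissue. A cut piece holds whatever cells lay in it, so fewer cells of a type and less RNA per cell cannot be told apart. At E11.5 and E13.5 there were more libraries than embryos, and p-values for those stages partly measure the spread within an embryo.

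The olfactory mucosa meets inhaled chemicals directly and is known as a tissue rich in enzymes that alter them. In a first step (phase I), cytochrome P450 and flavin monooxygenases add oxygen to the compound, and carbonyl reductases reduce it. In a second step (conjugation, or phase II), transferases attach glutathione, glucuronate, sulfate or a methyl group. In the adult mucosa such enzymes are best known from sustentacular cells of the epithelium and from Bowman's glands in the lamina propria.

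Promoter windows are shown for the 2 genes that the choice turned on and for Cyp2a5, whose reads were also concentrated in the nerve. They come from the 250 bases before the RefSeq start (GRCm38.p6), cut at the start side so that no more than 30 bases lie within the GENCODE gene, which left out 23 bases for Inmt, 63 for Cbr2 and 4 for Cyp2a5. Capitals mark the letters TATAAA and TTGGCA. The Inmt window lies at chr6:55175014-55175240 (minus strand), the Cbr2 window at chr11:120732085-120732271 (minus strand) and the Cyp2a5 window at chr7:26835089-26835334 (plus strand).
Inmt: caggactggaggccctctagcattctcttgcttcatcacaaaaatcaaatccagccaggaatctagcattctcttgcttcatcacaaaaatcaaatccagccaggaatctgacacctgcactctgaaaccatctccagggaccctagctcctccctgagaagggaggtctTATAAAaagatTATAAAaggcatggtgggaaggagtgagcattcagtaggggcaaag
Cbr2: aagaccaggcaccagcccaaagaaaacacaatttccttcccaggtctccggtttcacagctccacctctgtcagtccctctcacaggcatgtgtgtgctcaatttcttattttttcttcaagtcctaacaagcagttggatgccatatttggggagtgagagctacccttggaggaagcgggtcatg
Cyp2a5: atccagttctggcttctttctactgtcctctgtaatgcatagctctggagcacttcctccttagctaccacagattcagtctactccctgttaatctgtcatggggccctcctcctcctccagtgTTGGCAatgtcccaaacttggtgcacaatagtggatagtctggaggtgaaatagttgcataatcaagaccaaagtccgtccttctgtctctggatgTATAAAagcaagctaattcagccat

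Windows were given for 7 of the 9 genes, and the whole 250 bases before the RefSeq start were searched on both strands. TATAAA, the core of the TATA box, occurred in the windows of Inmt, Cyp2a5, Ugt2a1 and Gstm1 and in 12.4% of all 32851 promoter windows. The core of the Olf-1/EBF site, known from olfactory genes, was in none of the 7 and in 0.779% of all windows. TTGGCA, the core bound by nuclear factor I, was in those of Cyp2a5 and Ugt2a1 (12.3% of all windows), and GCGTG, the core bound by the aryl hydrocarbon receptor, in those of Cyp1b1 and Gstm1 (28.2%). CAGCTG, an E-box, was in those of Inmt, among the bases left out above, and Cyp2f2 (13.0%), and TGACNNNGC, the antioxidant response element core, was in none (10.2%). The Cbr2 window held none of these 6 motifs. In the Inmt window a stretch of 49 bases recurred 46 bases further on, and 0.32% of all windows held a repeat at least as long. These matches are letters in a window and not measured binding.

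Total counts were 13379107 to 16800784 in the 12 E16.5 olfactory libraries, 30221586 to 32508725 in the 3 trigeminal libraries and 3512627 to 36705535 in the 16 early libraries. Of these 16, 10 carry a label that differs from the group in which the study analysed them. Each of the 7 group means of the study was rebuilt from the deposited counts to within 0.000869% with the libraries placed as follows, and that grouping is used here. The E13.5 ONL group takes in the 5 libraries whose labels read E11.5 nerve 1 to 4 and E13.5 nerve 1. The E13.5 nerve group takes in the 7 whose labels read E13.5 nerve 2 to 7 and E13.5 ONL 1. The E11.5 nerve group takes in the 4 whose labels read E13.5 ONL 2 to 5. Values by label are given beside the early results. Sox10, the gene that guided dissection, averaged 126 CPM ± 37.5 (SD, n = 4) in E16.5 olfactory nerve, against 646 ± 61.0 (n = 4) in outer ONL, 550 ± 133 (n = 4) in inner ONL and 335 ± 37.0 (n = 3) in trigeminal nerve, so that every nerve library was below every library of the other regions. Summed over 24 sustentacular and gland markers, the nerve libraries had 428 to 838 CPM, against 40.7 to 82.8 in outer ONL, 34.8 to 50.4 in inner ONL and 142 to 189 in trigeminal nerve, and 23 of the 24 were over 3 reads in at least 1 nerve library. Epcam, a defining marker of epithelium, had 422 to 1372 reads in the nerve libraries and 43 to 81 in outer ONL. Summed over 25 mesenchyme markers, the nerve libraries had 14304 to 22236 CPM, the outer ONL libraries 8623 to 15141 and the inner ONL libraries 2471 to 4167, while the trigeminal libraries, at 33210 to 38391, were above every nerve library. The part of these cells in the nerve differences was not tested.

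Inmt encodes indolethylamine N-methyltransferase, which methylates amines such as tryptamine and can also methylate sulfur and selenium compounds. At E16.5 its 4 olfactory nerve libraries had 725, 159, 523 and 324 CPM, from 11722, 2573, 8050 and 5852 reads. The outer ONL libraries had 3.30, 3.14, 5.98 and 1.47 CPM, the inner ONL libraries 0.0673, 0.301, 0 and 0.181, and the trigeminal libraries 0.361, 2.45 and 1.51. The lowest nerve library thus stood above every library of the other regions. The mean level in nerve was 125-fold that in outer ONL, 3155-fold that in inner ONL and 301-fold that in trigeminal nerve, with the inner ONL ratio resting on 8 reads.

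Cbr2, a carbonyl reductase that uses NADPH and is known from lung, had 370, 244, 258 and 619 CPM in the 4 nerve libraries, from 5987, 3935, 3961 and 11177 reads. Its levels were 3.53, 2.01, 7.26 and 1.40 CPM in outer ONL, 0.202, 0.226, 0.157 and 0.362 in inner ONL, and 1.59, 2.67 and 3.57 in trigeminal nerve. Again no library of another region came near the nerve. The mean nerve level was 105-fold that in outer ONL, 1575-fold that in inner ONL (14 reads) and 143-fold that in trigeminal nerve.

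**Figure D1:**
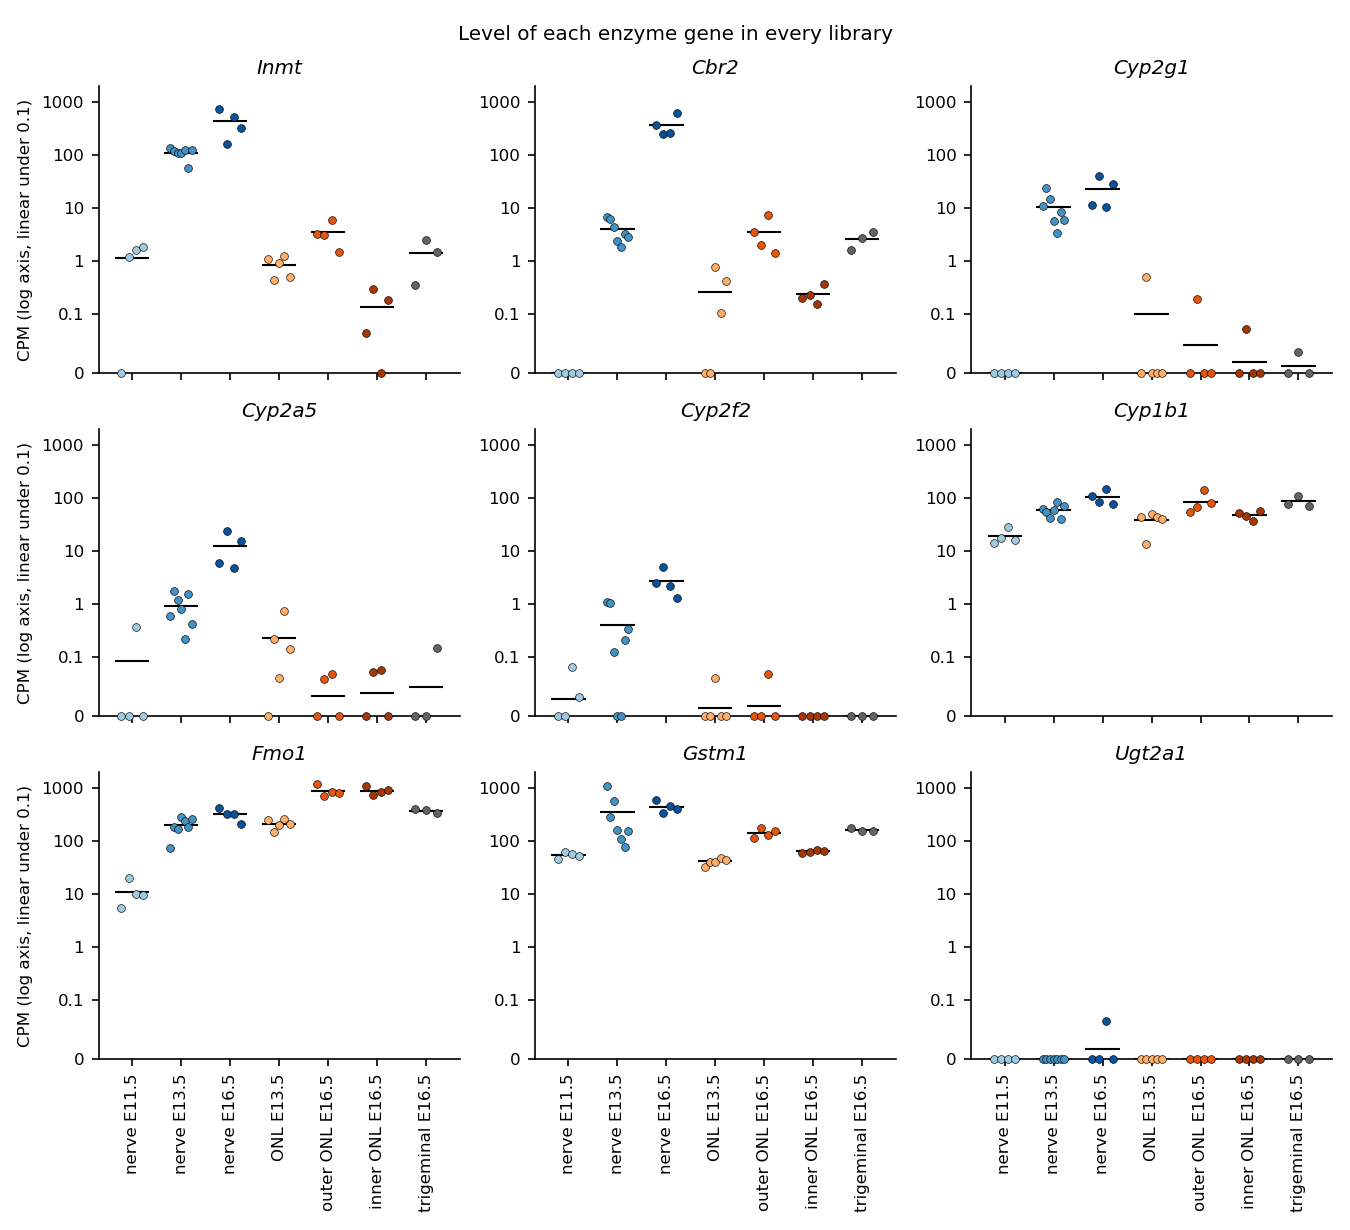
Level of each of the 9 genes in every library (points, CPM on a log axis that is linear under 0.1) in the 7 groups of the study's grouping, with horizontal lines at the group means. Inmt and Cbr2 sit at 159 to 725 CPM in the 4 E16.5 nerve libraries and at no more than 7.26 CPM in the other E16.5 libraries, while Cyp1b1, Gstm1 and Fmo1 are read in every group.

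The 3 members of the Cyp2 cluster on chromosome 7 were read almost only in olfactory nerve. On mm10, Cyp2g1 (chr7:26808892-26821205) lies 14100 bases before Cyp2a5 (chr7:26835305-26843548) on the plus strand, and Cyp2f2 (chr7:27119909-27133660) lies further along on the same strand. Cyp2g1, a P450 known as specific to the olfactory mucosa, had 185, 643, 162 and 503 reads in the 4 E16.5 nerve libraries (11.4, 39.8, 10.5 and 27.9 CPM). Over all other E16.5 libraries it had 5 reads, 3 of them in outer ONL replicate 2.

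Cyp2a5, which oxidizes coumarin and nicotine, had 96, 379, 74 and 282 reads in the nerve libraries (5.94, 23.5, 4.81 and 15.6 CPM) and 8 reads in the other 11 libraries together. Cyp2f2, which oxidizes naphthalene, had 40, 81, 33 and 23 reads in nerve (2.48, 5.01, 2.15 and 1.27 CPM) and 1 read elsewhere at E16.5. For all of these genes every nerve library exceeded every other E16.5 library.

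The pooled ratio of nerve to outer ONL was 449 for Cyp2g1 (exact 95% interval 154 to 2182), 375 for Cyp2a5 (104 to 3104) and 160 for Cyp2f2 (28.3 to 6349), where the intervals cover counting error only. Against trigeminal nerve the ratio was 261 for Cyp2a5 (102 to 961) and 1877 for Cyp2g1 (336 to 74175), and Cyp2f2, which had no trigeminal read, was at least 74.2-fold higher in nerve (floor of 3 reads over the group). No test of these ratios is given. Other genes of the cluster went another way: Cyp2a4, a near-identical neighbour with which Cyp2a5 could share reads, had 0 reads in all libraries, as did Cyp2a12 and Cyp2a22. Cyp2s1 had 95 reads in the nerve libraries and 1481 in the other E16.5 libraries, and Cyp2b19 had 12 and 192. Gm15883, an antisense gene over Cyp2f2, had 0 to 3 reads in any library, and the strand setting of the counting is not stated in the sources used here.

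Cyp1b1, a P450 that metabolizes steroids and polycyclic hydrocarbons and is induced through the aryl hydrocarbon receptor, was read at similar levels in several regions. The E16.5 nerve libraries had 111, 85.0, 147 and 78.3 CPM, the outer ONL libraries 55.4, 66.4, 139 and 80.0, and the trigeminal libraries 78.4, 110 and 71.3. These 3 groups overlapped. Neither difference from the nerve passed the test (log2 fold change 0.39 ± 0.26 (SE), adjusted p = 0.321 against outer ONL, and 0.34 ± 0.28, adjusted p = 0.410 against trigeminal nerve, edgeR). Without outer ONL replicate 3, the highest of its group, the first would be 0.71 with adjusted p = 0.0339. Against inner ONL, whose libraries had 51.9, 44.9, 37.1 and 57.4 CPM, the nerve was higher by 1.18 ± 0.26 on the log2 scale (edgeR adjusted p = 0.00165).

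Fmo1, a flavin monooxygenase that oxygenates nitrogen and sulfur atoms of drugs, went the opposite way. The nerve libraries had 426, 329, 323 and 212 CPM, against 1167, 710, 856 and 822 in outer ONL and 1107, 724, 833 and 908 in inner ONL. The trigeminal libraries, at 406, 388 and 333 CPM, overlapped the nerve. Fmo1 was lower in nerve than in outer ONL by a log2 fold change of -1.38 ± 0.19 (SE; adjusted p = 3.51e-05) and than in inner ONL by -1.43 ± 0.19 (adjusted p = 1.07e-05), and did not pass the test against trigeminal nerve (-0.16 ± 0.20, adjusted p = 0.591, edgeR).

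Gstm1, a mu-class glutathione S-transferase, had the highest level in olfactory nerve among the members not picked for their nerve reads, also per length. Its nerve libraries had 584, 344, 460 and 401 CPM, the outer ONL libraries 115, 177, 129 and 152, the inner ONL libraries 59.5, 62.6, 68.1 and 63.9, and the trigeminal libraries 176, 154 and 156. Every nerve library was above every other E16.5 library. Gstm1 was higher in nerve by 1.71 ± 0.17 on the log2 scale against outer ONL (adjusted p = 1.42e-06), by 2.85 ± 0.18 against inner ONL (adjusted p = 4.64e-09) and by 1.52 ± 0.19 against trigeminal nerve (adjusted p = 1.11e-05, edgeR). Ugt2a1, the glucuronosyltransferase named for the olfactory mucosa, had its single read in E16.5 nerve replicate 3, and a count of 0 leaves room for up to 3 reads. Its gene overlaps Ugt2a2 and Gm43638 on the same strand, and these genes could share reads. How the counting treated such reads is not stated, so the low count does not show that Ugt2a1 was silent. Ugt2a2 had 5, 11, 5 and 10 reads in the 4 nerve libraries and 0 in the other E16.5 libraries.

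Among the 3 members tested between nerve and outer ONL, Gstm1 was higher, Fmo1 was lower and Cyp1b1 was not called, where 25.7% of the 17800 genes tested were called (15.4% higher and 10.3% lower in nerve). Against inner ONL 2 of 3 were higher and 1 lower (40.3% of all genes called, 21.2% higher and 19.1% lower), and against trigeminal nerve 1 of 3 was higher (26.9%, 15.2% higher). In a fit of all 31 libraries grouped by label, the Gstm1 difference from outer ONL would be 1.64 (adjusted p = 0.0583) and from trigeminal nerve 1.46 (adjusted p = 0.125), and the Fmo1 difference from outer ONL -1.46 (adjusted p = 0.169) and from inner ONL -1.47 (adjusted p = 0.117, edgeR). Since the members were chosen around genes of high nerve level, nothing is read from these counts. The 3 comparisons share the nerve libraries.

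**Figure D2:**
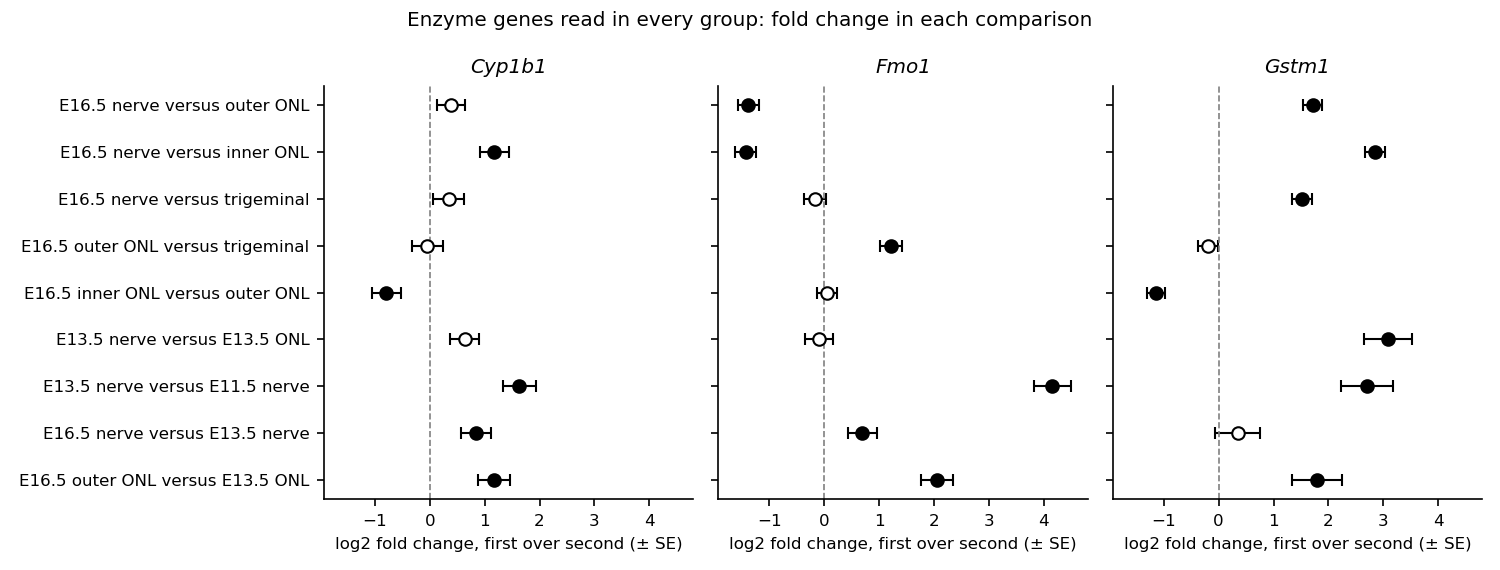
Log2 fold changes (points, first group over second) with their SE (bars) for Cyp1b1, Fmo1 and Gstm1 in 9 comparisons, where filled points passed edgeR's test at an adjusted p of 0.05. Gstm1 lies to the right of 0 in all 3 comparisons of E16.5 nerve, and Fmo1 lies to the left of 0 against both ONL regions.

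Levels of different genes can be compared only per length. Divided by exon length, the E16.5 nerve levels were 304 CPM per kb ± 69.8 (SD, n = 4) for Gstm1, 281 ± 131 for Cbr2 and 271 ± 153 for Inmt, which did not differ beyond their spread. Fmo1 followed at 51.2 ± 13.9, Cyp1b1 at 18.0 ± 5.36, Cyp2g1 at 10.4 ± 6.55, Cyp2a5 at 6.01 ± 4.24 and Cyp2f2 at 1.35 ± 0.793. Cyp1b1, Cyp2g1 and Cyp2a5 were neighbours whose spreads overlapped. In outer ONL the order was led by Fmo1, at a mean of 141 CPM per kb, and Gstm1, at 97.3 ± 18.5, while Cbr2 had 2.68 ± 1.98 and Inmt 2.17 ± 1.17.

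The members did not all vary together among the 4 nerve libraries. Divided by the group mean, Inmt had 1.68, 0.368, 1.21 and 0.748 in nerve replicates 1 to 4, and Cbr2 had 0.994, 0.654, 0.691 and 1.66. Inmt was thus highest in replicate 1 and Cbr2 in replicate 4. Cyp2a5 had 0.477, 1.88, 0.386 and 1.25 and Cyp2g1 had 0.511, 1.78, 0.470 and 1.24, a shared order with replicate 2 highest, in which Inmt was lowest. Cyp2f2 was also highest in replicate 2, at 1.84, but had 0.467 in replicate 4. Gstm1 had 1.31, 0.768, 1.03 and 0.897, the replicate order of Inmt. Cyp1b1 had 1.05, 0.807, 1.40 and 0.743 and Fmo1 had 1.32, 1.02, 1.00 and 0.657, each in an order of its own. In the same libraries the summed sustentacular and gland markers were 838, 428, 462 and 604 CPM, the olfactory neuron and progenitor markers 1182, 849, 833 and 1453, the glial markers 2466, 4060, 2005 and 1786, and the blood vessel and mural markers 4521, 1569, 4146 and 2338. The vessel and mural sums ran in the replicate order of Inmt and Gstm1. Replicate 2, with the highest levels of the 3 Cyp2 genes, had the lowest sustentacular and gland sum and the highest glial sum. With 4 libraries the part of these cells in the differences was not tested.

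**Figure D3:**
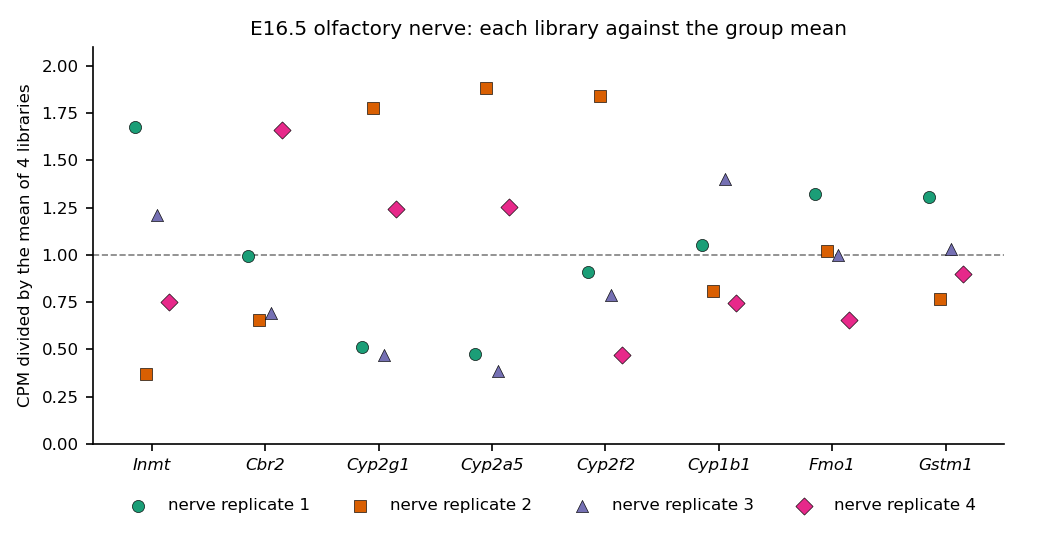
Level of 8 genes in each E16.5 olfactory nerve library (y axis, CPM divided by the mean of the 4 libraries, dashed line at 1), with a symbol per replicate. Replicate 2 is the highest of the group for Cyp2g1 (1.78), Cyp2a5 (1.88) and Cyp2f2 (1.84) and the lowest for Inmt (0.368).

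Outside the olfactory nerve, the members could be compared between outer ONL and trigeminal nerve and between the ONL regions. Inmt and Cbr2, which were not picked on these contrasts, did not pass the test between outer ONL and trigeminal nerve (log2 fold change 1.23 ± 0.58, adjusted p = 0.119, and 0.40 ± 0.45, adjusted p = 0.543, edgeR), and their libraries overlapped. Fmo1 was higher in outer ONL by 1.22 ± 0.21 (adjusted p = 2.10e-04), and was the only member called of the 5 tested, where 31.3% of all genes were called. In the fit of all 31 libraries grouped by label its call was lost (1.24, adjusted p = 0.279, edgeR). Gstm1 (-0.19 ± 0.18, adjusted p = 0.463) and Cyp1b1 (-0.04 ± 0.28, adjusted p = 0.928) did not pass.

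Between inner and outer ONL, 4 of the 5 members tested were lower in inner ONL (17.7% of all genes called, 10.1% higher and 7.54% lower). Inmt differed by -4.52 ± 0.86 on the log2 scale (adjusted p = 0.00137) and Cbr2 by -3.77 ± 0.64 (adjusted p = 6.33e-04), on 8 against 201 and 14 against 203 reads. Gstm1 differed by -1.14 ± 0.17 (adjusted p = 2.30e-04), with no overlap between the libraries. Cyp1b1 differed by -0.79 ± 0.26 (adjusted p = 0.0462, edgeR), a call lost without outer ONL replicate 3 or 4 or inner ONL replicate 1, 2 or 3 (adjusted p 0.0645 to 0.211). With all 31 libraries in the study's grouping, the calls of Gstm1 (-1.17, adjusted p = 0.109) and Cyp1b1 (-0.83, adjusted p = 0.0763) were lost, and by label also that of Inmt (-4.57, adjusted p = 0.173, edgeR). Fmo1 did not differ beyond the spread (0.05 ± 0.19, adjusted p = 0.909). Mesenchyme markers moved with these differences, at 2471 to 4167 CPM in inner ONL against 8623 to 15141 in outer ONL. So did the vessel and mural (606 to 860 against 1041 to 1574), meningeal (297 to 522 against 693 to 981) and macrophage markers (251 to 340 against 404 to 499). The olfactory neuron and progenitor sum went the other way (1258 to 2543 against 232 to 727), but by gene 4 of 20 were called higher in inner ONL and 6 lower (median log2 fold change -0.78). The part of these cells was not tested.

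Over the stages of the olfactory nerve, the genes came up at different times. At E11.5, Inmt had 0, 1.17, 1.62 and 1.84 CPM, and Cbr2 and Cyp2g1 had no read in any of the 4 libraries, whose totals were 24218053 to 36705535. At E13.5, the 7 nerve libraries ranged from 56.6 to 134 CPM for Inmt (median 121), from 1.85 to 6.78 for Cbr2 (median 3.29) and from 3.41 to 23.9 for Cyp2g1 (median 8.25). Inmt and Cyp2g1 were thus far above their E11.5 levels at E13.5, when Cbr2 was still far below its E16.5 level. Against the E11.5 libraries, which had no read of them, Cyp2g1 was at least 412-fold and Cbr2 at least 170-fold higher (floor of 3 reads over the group). By label the E11.5 libraries had 7 reads of Cyp2g1 and 13 of Cbr2, and the pooled ratios would be 45.2 (21.8 to 113) and 10.3 (5.92 to 19.5).

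From E13.5 to E16.5 the mean rose 93.7-fold for Cbr2 and 3.90-fold for Inmt, again with no overlap of libraries. By label, E13.5 nerve would be 93.3 CPM ± 47.9 (SD, n = 7) for Inmt and 3.62 ± 2.33 for Cbr2, and E11.5 nerve 0.924 ± 0.355 (n = 4) and 0.221 ± 0.376. Cyp2a5 ranged from 0.222 to 1.73 CPM in E13.5 nerve (median 0.811), with 3 to 22 reads a library, and reached 4.81 to 23.5 at E16.5, a rise of 3.77 ± 0.70 on the log2 scale (adjusted p = 1.55e-04, edgeR). Cyp2f2 had 0 to 19 reads in the E13.5 nerve libraries (0 to 1.11 CPM, median 0.210), all below the E16.5 libraries, with a pooled ratio of E16.5 to E13.5 of 7.20 (4.97 to 10.7). It had passed the filter only through the E16.5 nerve, and no test is given. The mesenchyme markers (6025 to 9647 CPM at E13.5, 14304 to 22236 at E16.5), the vessel and mural markers (705 to 1151, then 1569 to 4521), the macrophage markers (178 to 544, then 587 to 1269) and the glial markers (571 to 1162, then 1786 to 4060) moved with these changes, and their part was not tested. The sustentacular and gland sums of the stages overlapped, at 537 to 827 CPM and 428 to 838.

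Cyp2g1 had not passed the test between these stages (1.11 ± 0.53, adjusted p = 0.120, and 1.45 with adjusted p = 0.0484 without the library labelled E13.5 olfactory nerve 3). Its E13.5 and E16.5 libraries overlapped. Cyp2g1 had more reads than Cyp2a5 at both stages: the pooled nerve reads were 867 for Cyp2g1 and 79 for Cyp2a5 at E13.5, and 1493 and 831 at E16.5.

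The broadly read genes rose first between E11.5 and E13.5. Fmo1 had 5.35, 19.7, 9.88 and 9.63 CPM at E11.5 and 74.8 to 288 at E13.5 (median 185), a rise of 4.16 ± 0.33 on the log2 scale (adjusted p = 8.25e-11). Gstm1 had 46.1, 61.6, 56.7 and 51.1 CPM at E11.5 and 78.7 to 1108 at E13.5 (median 159), a rise of 2.71 ± 0.47 (adjusted p = 4.48e-05). Cyp1b1 had 14.1 to 28.7 CPM in the 4 E11.5 libraries and 39.9 to 83.2 CPM at E13.5 (median 59.3), a rise of 1.63 ± 0.30 (adjusted p = 6.99e-05, edgeR). In none of the 3 did the stages overlap. The summed mesenchyme markers (3026 to 4208 CPM, then 6025 to 9647), vessel and mural markers (192 to 402, then 705 to 1151) and sustentacular and gland markers (266 to 381, then 537 to 827) also rose. The meningeal sum rose as well (502 to 737, then 1009 to 1334), but by gene 3 of 13 were called higher at E13.5 and 7 lower (median log2 fold change -1.66). The olfactory neuron and progenitor sum fell (2092 to 2812, then 955 to 1687), but by gene 11 of 20 were called higher at E13.5 and 2 lower (median log2 fold change 1.04). Sox10 fell (287 to 358, then 39.9 to 85.4). The part of these cells in the rises was not tested. Cyp2a5 had 9 reads in the E11.5 libraries, all in 1, and Cyp2f2 had 3, against 79 and 34 at E13.5 (no test). All 3 members tested were higher at E13.5 (36.6% of all genes called, 20.2% higher). By label, Fmo1 would instead differ by -0.15 (adjusted p = 0.908) and Cyp1b1 by 0.53 (adjusted p = 0.361, edgeR), and Gstm1 alone would be called.

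From E13.5 to E16.5, Cyp1b1 rose by 0.84 ± 0.27 in the nerve (adjusted p = 0.0191) and Fmo1 by 0.69 ± 0.26 (adjusted p = 0.0474, edgeR), and for both the stages overlapped. The Cyp1b1 call was lost without E16.5 nerve replicate 3 (adjusted p = 0.0824). The Fmo1 call was lost in 7 of 11 leave-one-out fits, those without E16.5 nerve replicate 1, 2 or 3 or the library labelled E13.5 olfactory nerve 2, 3, 4 or 7 (adjusted p 0.0637 to 0.187). It was also lost with total counts alone (0.66, adjusted p = 0.0553) and by label (0.75, adjusted p = 0.393, edgeR). By label the Cyp1b1 call stayed (0.96, adjusted p = 0.0466, edgeR). Gstm1 did not pass (0.35 ± 0.41, adjusted p = 0.571). Of the E13.5 nerve libraries, those labelled 2 and 4 had 1108 and 573 CPM and the other 5 had 78.7 to 282. Without the library labelled 2 its rise was 0.99 with adjusted p = 0.0180. Of the 5 members tested Cyp2a5, Cyp1b1 and Fmo1 were higher at E16.5, where 28.8% of all genes were called (15.2% higher).

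At E13.5 the nerve already stood apart from the ONL for some of the members. Inmt had 0.432 to 1.25 CPM in the 5 E13.5 ONL libraries, and its mean nerve level was 132-fold higher. Cbr2 had 0, 0, 0.780, 0.104 and 0.430 CPM there, against 1.85 to 6.78 in nerve, and its mean was 15.1-fold higher. By label the ratios of means would be 3.58 and 6.24, with overlapping libraries. Cyp2g1 had reads in 1 of the 5 ONL libraries (7 reads), with a pooled nerve-to-ONL ratio of 95.9 (46.4 to 239), Cyp2f2 had 1 read in ONL and 34 in nerve (26.3, 4.42 to 1070), and Cyp2a5 had 15 and 79 (4.08, 2.33 to 7.63). By label these ratios would be 14.6 for Cyp2g1, 5.69 for Cyp2f2 and 7.39 for Cyp2a5, and no test of them is given.

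Gstm1 had 32.4, 40.7, 40.6, 48.2 and 44.4 CPM in E13.5 ONL, below every E13.5 nerve library, and differed by 3.09 ± 0.44 on the log2 scale (adjusted p = 1.85e-06). Cyp1b1 (0.64 ± 0.26, adjusted p = 0.0653) and Fmo1 (-0.09 ± 0.25, adjusted p = 0.829, edgeR) did not pass. Cyp1b1 would pass without the one labelled E11.5 olfactory nerve 3, E13.5 olfactory nerve 4 or E13.5 olfactory nerve 7 (adjusted p 0.0441 to 0.0473). Of the 3 members tested Gstm1 alone was higher in nerve, where 31.5% of all genes were called (16.1% higher). By label, Gstm1 was still higher in nerve (2.19, adjusted p = 0.00604), and Fmo1 turned to 1.68 (adjusted p = 0.0541, edgeR). The summed sustentacular and gland markers were 537 to 827 CPM in E13.5 nerve and 36.6 to 74.1 in E13.5 ONL, and at E11.5 they were 266 to 381 CPM in nerve, where Cbr2 and Cyp2g1 had no read.

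In the ONL, all 5 members tested were higher in E16.5 outer ONL than in E13.5 ONL (41.9% of all genes called, 21.9% higher). Cbr2 rose by 3.34 ± 0.60 on the log2 scale (adjusted p = 5.50e-05), Inmt by 2.20 ± 0.65 (adjusted p = 0.00695), Fmo1 by 2.06 ± 0.29 (adjusted p = 1.31e-06), Gstm1 by 1.79 ± 0.45 (adjusted p = 0.00194) and Cyp1b1 by 1.17 ± 0.30 (adjusted p = 0.00192, edgeR). For each of these 5 genes the libraries of the 2 stages did not overlap. By label, the Inmt difference would be -2.88 (adjusted p = 0.0741) and the Gstm1 difference 0.96 (adjusted p = 0.175, edgeR). The glial markers, at 4767 to 7364 CPM in E13.5 ONL and 20949 to 37022 in outer ONL, the mesenchyme markers, at 2863 to 5848 and 8623 to 15141, and the vessel and mural markers, at 418 to 635 and 1041 to 1574, moved with these changes, and their part was not tested.

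The difference between nerve and ONL itself changed between stages for 1 of the 3 members tested, where 12.3% of all genes were called. For Fmo1 the nerve-minus-ONL difference was 1.37 ± 0.40 lower on the log2 scale at E16.5 (outer ONL) than at E13.5, a change of -1.37 (adjusted p = 0.0192, edgeR). Its ONL libraries had 148 to 257 CPM at E13.5 and 710 to 1167 at E16.5. For Gstm1 (adjusted p = 0.136) and Cyp1b1 (adjusted p = 0.703, edgeR) the change did not pass the test.

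The other genes of these pathways moved in both directions between E16.5 nerve and outer ONL, where 25.7% of all 17800 genes were called, 15.4% higher and 10.3% lower. Of 71 further phase I genes in the file, 57 were tested, and 16 were higher and 13 lower in nerve, with a median log2 fold change of -0.06 against 0.05 over all genes. The genes named here and below were picked as the largest called changes of this comparison, so their p-values are no separate evidence. Pon1, a lactonase known from serum, had 2.47 to 16.2 CPM in the nerve libraries and no more than 2 reads in any outer ONL library. Its means were 0.157 CPM in inner ONL and 0.0363 in trigeminal nerve. Being read almost only in nerve, it is given by level, with no test. Ces2e, a carboxylesterase, had 0.990 to 2.27 CPM in nerve, 1 outer ONL read and a trigeminal mean of 0.471 CPM, and is also given without a test. Cyp4f15, a P450 of the fatty acid-oxidizing family, was lower by -3.79 ± 0.46 (adjusted p = 1.15e-05) and Ces1f, another carboxylesterase, by -2.28 ± 0.79 (adjusted p = 0.0461, edgeR).

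Of 64 further conjugation genes, 43 were tested, and 17 were higher and 13 lower (median 0.17). Both sulfotransferases that led the list had their highest levels in nerve. Sult1c1 had 37.5 CPM ± 20.3 in nerve against 0.249 ± 0.499 in outer ONL, and trigeminal and inner ONL means of 0.269 and 0.0151 (no test). Sult1e1, which sulfates estrogens, had 82.4 ± 78.4 against 1.19 ± 0.626 (6.19 ± 0.80 on the log2 scale, adjusted p = 2.00e-05, edgeR). Lower in nerve were Ugt8a, which makes the galactolipid of myelin (-2.59 ± 0.28, adjusted p = 2.78e-06), and Mgst1, a microsomal glutathione transferase (-2.50 ± 0.21, adjusted p = 1.95e-07, edgeR).

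Of 28 glutathione and redox genes tested, 3 were higher and 9 lower (median -0.24). Gpx2, the epithelial glutathione peroxidase, had 2.29 to 11.0 CPM in the nerve libraries and no more than 8 reads in any outer ONL library (no test). Ggt7 was higher by 1.72 ± 0.43 (adjusted p = 0.00624, edgeR). Sod3, the extracellular superoxide dismutase, was lower by -2.58 ± 0.28 (adjusted p = 3.81e-06) and Ggt1, which cleaves extracellular glutathione, by -2.50 ± 0.31 (adjusted p = 1.21e-05, edgeR). Of 15 export pumps and uptake carriers, 7 were higher and 2 lower (median 0.65). The organic anion carrier Slco4c1 had 8.35 to 15.2 CPM in the nerve libraries and no more than 7 reads in any outer ONL library (no test). Slc47a1, which extrudes organic cations, had 1.86 to 8.09 CPM in nerve and no more than 13 reads in any outer ONL library (no test). Abcb4, a phospholipid transporter (-1.99 ± 0.54, adjusted p = 0.0111), and Slco2b1 (-1.38 ± 0.20, adjusted p = 7.22e-05, edgeR) were lower. Of 23 regulators of such genes, 11 were higher and 0 lower (median 0.38), and the largest differences were those of Ebf3 (3.32 ± 0.54, adjusted p = 2.07e-04) and Ebf2 (2.97 ± 0.35, adjusted p = 6.94e-06, edgeR), transcription factors of the Olf/EBF family. Neither was particular to the olfactory nerve by level, as the trigeminal means were 20.7 CPM for Ebf3 and 233 for Ebf2, against 15.7 and 171 in nerve.

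**Figure D4:**
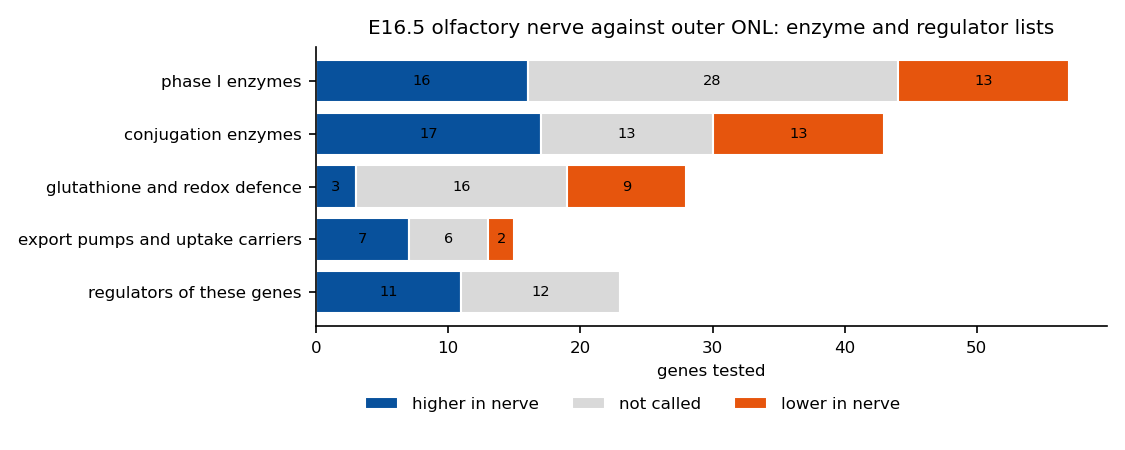
Number of genes tested in each of 5 lists (bar length) that were called higher in E16.5 olfactory nerve than in outer ONL (blue), called lower (orange) or not called (grey). Phase I and conjugation genes moved in both directions (16 and 17 higher, 13 and 13 lower), while the 23 regulators had 11 higher and 0 lower.

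Markers of the cells that a nerve piece could hold moved in the same comparison. Of the markers tested, 16 of 22 for sustentacular cells and glands, 14 of 20 for olfactory neurons and progenitors, 16 of 22 for mesenchyme, 11 of 19 for blood vessels and mural cells and 11 of 14 for macrophages were higher in nerve, and 0, 0, 1, 0 and 0 were lower. Of 13 meningeal markers 2 were higher and 7 lower, and of 10 glial markers 0 were higher and 8 lower, beside 15.4% of all genes higher and 10.3% lower. The lists do not tell which cells carried the enzyme reads, and this was not tested.

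The genes whose log2 level over the 15 E16.5 libraries was most like that of Inmt were Sult1e1 (Pearson r = 0.986), Cbr2 (0.985), Fezf1 (0.983), Hs3st6 (0.981) and Atp6v1g3 (0.981). Those most like Cbr2 were Inmt (0.985), Fmo6 (0.976), Fezf1 (0.975), Rerg (0.974) and Krt7 (0.974). The 15 points fall into nerve and other libraries and share them between genes, and no test was made. Among the members, Cyp2a5 and Cyp2g1 had r = 0.996, Gstm1 had 0.924 with Inmt, and Fmo1 had -0.661 with Inmt and -0.730 with Cbr2 over the same libraries.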

How the data were processed

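RNA from 31 laser-microdissected nerve libraries was measured. The authors deposited raw counts of reads per gene, made with TopHat2 2.1.0 on mm10 and HTSeq, per the labels, and these were used as deposited, without the 1 row that names no gene. GENCODE M21 gave symbols to 47224 of 47729 genes.

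Counts were scaled by TMM, filtered by filterByExpr and tested with edgeR 4.0.16 (quasi-likelihood, Benjamini-Hochberg, called at an adjusted p under 0.05) in R 4.3.3. The 15 E16.5 libraries were fitted by label (17800 genes kept), and comparisons with E11.5 or E13.5 used all 31 libraries in the study's grouping (19332 genes). Alternatives were DESeq2 1.42.0, its size factors or total counts in edgeR, no filter, other groupings, each library left out and a replicate block. Cyp2a5 and Cyp2g1 were tested only between E13.5 and E16.5 nerve, both groups through which the filter kept them, Cyp2f2 in no comparison, and Inmt and Cbr2 where the nerve was not compared. On simulated data for nerve against outer ONL, edgeR recovered 199 of 200 genes changed 4-fold among 17800 and called 7 unchanged genes. The changed genes were drawn from those of higher CPM and all genes had the same dispersion. This recovery therefore does not speak to members with few reads or a wide spread. Pooled ratios have exact conditional intervals, and correlations used log2(CPM + 0.5). Ratios and intervals were computed in Python 3.11.15 with SciPy 1.17.1.

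The members and lists were chosen with earlier results of these data known. Named genes are the members, Sox10, up to 2 called genes per direction with the largest change in each of 5 enzyme and regulator lists, and the 5 genes most like Inmt and Cbr2. The 12 lists were written from general knowledge. Whether replicates with the same number share an embryo is not stated. Same-number residual correlations of E16.5 olfactory nerve and outer ONL were 0.145 to 0.299, all 4 over 0.1. Other pairs had -0.259 to 0.252, which overlaps this range. The numbers were taken to pair these groups in the replicate block only, and the main p-values come from fits without it. Other E16.5 group pairs did not meet this.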

Additional observations from a re-analysis of the deposited data

Results flagged for a closer look

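Of 38 groups of 4 to 10 libraries examined gene by gene, 4 held a library far from the rest by Dixon's test. For normally spread values chance meets this in about 1 in 20 groups. That rate does not hold for the Cyp2g1 and Cyp2a5 groups below, where all other libraries had 0 and any library over 3 reads is flagged. Inmt in E13.5 olfactory nerve had 56.6 CPM in the library labelled replicate 7, against 108 to 134 in the other 6. Cyp1b1 in E13.5 ONL had 13.3 CPM in the library labelled E11.5 olfactory nerve replicate 2, against 39.4 to 49.4 in the other 4, and Cyp2g1 had 0.504 CPM (7 reads) in the same library and 0 in the others. Cyp2a5 in E11.5 olfactory nerve had 0.373 CPM (9 reads) in the library labelled E13.5 ONL replicate 4 and 0 in the other 3.

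The difference between olfactory nerve and ONL changed from E13.5 to E16.5 for Fmo1 by -1.37 ± 0.40 (SE) on the log2 scale (adjusted p = 0.0192, edgeR). With libraries grouped by label the change was -3.14 (adjusted p = 0.0240).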

How the results depend on the processing

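Of 712 single-gene alternatives, 661 were unchanged in direction and side of the threshold, 28 lost it, 7 gained it and 12 changed direction. Inmt and Cbr2 in nerve comparisons have no test, and there unchanged means a shift under the SD of the log2 levels in the first group. The other 4 alternatives, all of these 2 genes, moved by that SD or more. Counts of members called stayed within 1.5 times in 124 of 136 alternatives, and the share of all genes called in 121 of 136. Without a filter on low counts the share called fell to 15% for E16.5 nerve against outer ONL, 23.6% against inner ONL, 16.3% against trigeminal nerve, 17.5% for outer ONL against trigeminal nerve, 9.6% for inner against outer ONL, 17.5% for E13.5 nerve against ONL, 21.4% for E13.5 against E11.5 nerve, 14.6% for E16.5 against E13.5 nerve and 22.2% for E16.5 outer ONL against E13.5 ONL, with more genes tested. With all 31 libraries grouped by label it was 16.1%, 17.8% and 20.3% for nerve against outer ONL, nerve against trigeminal nerve and outer ONL against trigeminal nerve, 8.58% for inner against outer ONL, and 17.7% and 17.5% for E13.5 nerve against ONL and E11.5 nerve. The members called by label numbered 0 for nerve against outer ONL, nerve against trigeminal nerve and outer ONL against trigeminal nerve, 1 for inner against outer ONL and for E13.5 against E11.5 nerve, and 3 for outer ONL against E13.5 ONL. With all 31 libraries in the study's grouping 2 were called for inner against outer ONL, and with total counts alone 2 for E13.5 nerve against ONL. By label, Fmo1 turned to 1.68 for E13.5 nerve against ONL and to -0.151 against E11.5 nerve, and Inmt to -2.88 for outer ONL against E13.5 ONL. With total counts alone, Fmo1 turned to 0.024 (nerve against trigeminal nerve) and Cyp1b1 to 0.093 (outer ONL against trigeminal nerve). The cause of these changes was not tested. Over all genes, that scaling shifted median log2 differences by -0.0754 to 0.197, and calls that were higher went from 56.4% to 73.8% for nerve against trigeminal nerve and from 48.3% to 60.3% for outer ONL against trigeminal nerve.

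Leaving out 1 library at a time, Cbr2 ranged from -0.212 to 0.723 and Cyp1b1 from -0.369 to 0.181 (outer ONL against trigeminal nerve), Fmo1 from -0.0953 to 0.173 (inner against outer ONL) and from -0.202 to 0.0487 (E13.5 nerve against ONL), none past the threshold, and 1 to 3 members were called for E16.5 against E13.5 nerve and 1 to 2 for E13.5 nerve against ONL.

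With the replicate block, 2 members and 26.7% of genes were called for nerve against outer ONL. The members were Gstm1 (1.71, adjusted p = 2.23e-05) and Fmo1 (-1.39, adjusted p = 1.84e-05, edgeR). The block ended 1 member call at E16.5, that of Cyp1b1 for inner against outer ONL (-0.731, adjusted p = 0.0888, edgeR), and no other. Where a group from E11.5 or E13.5 was compared, no paired analysis was possible because those groups, as the study analysed them, mix libraries whose label numbers belong to different groups. In libraries of 3512627 reads and more, a count of 0 leaves room for up to 3 reads.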
